A study of Mus musculus with 26 samples.

Results

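Spp1, Gpnmb, Lpl, Itgax, Clec7a, Lgals1, Lgals3, Fabp5, Cst7 and Cd9 are genes named in microglia of developing axon tracts and in microglia that clear cells, myelin or plaques. They were chosen by symbol as a list of 10 genes. Of these, 9 matched a feature among the 31053 genes listed for sorted microglia. Clec7a matched none by symbol or Ensembl identifier and was not analysed here. The genes were described in the 18 libraries of sorted microglia among the 26 samples of the series.

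Microglia are the resident macrophages of the brain, and around birth a phagocytic state appears along developing white matter tracts. Its cells secrete osteopontin (Spp1), carry the lysosomal glycoprotein Gpnmb and the integrin subunit Itgax (Cd11c), and handle lipid with the lipase Lpl and the fatty acid chaperone Fabp5. Much of the same set is turned on through Trem2 in disease-associated microglia, together with Clec7a, a receptor for fungal glucans, the galectins Lgals1 and Lgals3, the cysteine protease inhibitor Cst7 and the tetraspanin Cd9.

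Dams of strain C57Bl/6N were injected intraperitoneally at E12.5 with saline or with Poly(I:C), a long RNA duplex made to mimic a virus (maternal immune activation, MIA). Wild-type microglia were sorted from the somatosensory (S1) cortex of embryos or pups as Cd11b+, Cx3cr1+ and Cd45low cells, so cells with high Cd45 lay outside the gate, and RNA of single cells was counted as unique molecular identifiers (UMIs). Each group at E13.5 and at E15.5 (E13 and E15 in the labels) held 3 saline or 3 MIA libraries of pooled embryos of mixed sex. At P14 there were 4 saline libraries, of which a female and a male library are both labelled replicate 3, and 2 MIA libraries. The libraries are taken as replicates, so p-values measure the spread between pools of embryos. At P14 the paper counts 4 saline and 2 Poly(I:C) mice, so there they measure the spread between single mice. Dissection and pooling go with age and cannot be told apart from it. Sequencing batch, which the paper used as a covariate, is not given in the labels.

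Of 73356 barcodes, 67847 had 500 genes or more and no more than 20% of UMIs from mitochondrial genes, and a library held 6160925 to 105751888 UMIs in them. The median cell held 7860 to 24494 UMIs in the E13.5 libraries, 8482.5 to 11721 in the E15.5 libraries and 3682 to 6787 in the P14 libraries. The 12 microglial markers summed to 23697 to 25495 counts per 1000000 UMIs (CPM) at E13.5, 33227 to 40638 at E15.5 and 59927 to 71149 at P14. The 8 border macrophage markers summed to 165 to 1311, 128 to 450 and 61.6 to 115 CPM, and the 8 neuron markers to 50.8 to 207, 177 to 2212 and 17.9 to 43.2 CPM, in the same order. The astrocyte and oligodendrocyte markers had median sums of 11.7, 29.4 and 195 CPM and did not overlap between ages, and the red blood cell markers ran from 26.1 to 6102, 166 to 5321 and 3.87 to 1714 CPM. The 2212 CPM came from E15.5 MIA replicate 1, where the other 5 libraries of that age reached 577 at most.

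Cell barcodes recurred between libraries, and the P14 levels of some of the genes, with 2 levels at E15.5, rest on them. Of the 375 cells of E13.5 MIA replicate 2, 258 carried a barcode also found in the female library and 239 one found in the male library of P14 saline replicate 3. Of the 280 cells of E13.5 MIA replicate 1, 133 shared theirs with P14 MIA replicate 1 and 107 with P14 saline replicate 1. Keeping each barcode only in the library where it had most UMIs removed 1831 cells (2.70%; 0.357 to 16.2% per library). In the female P14 saline library these cells held 92.1% of the Lgals1, 74.1% of the Spp1, 66.4% of the Fabp5 and 40.0% of the Lpl UMIs, and in the male library 87.6% of the Lgals1 and 55.8% of the Spp1 UMIs. All 8 Gpnmb UMIs of each library lay in them. Cst7 (1.6%) and Cd9 (5.7%) were little affected in the female library. The removed cells of that library held 1391 CPM of the homeostatic receptor P2ry12 and 453 CPM of the mitotic topoisomerase Top2a, against 6260 and 15 CPM in its other cells. The most affected library by its share of cells was E15.5 MIA replicate 3 (16.2% removed), where these cells held 42.5% of the Lgals1 and 57.1% of the Gpnmb UMIs. Levels, age steps and shares that these cells moved by much are given without them as well.

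**Figure D1:**
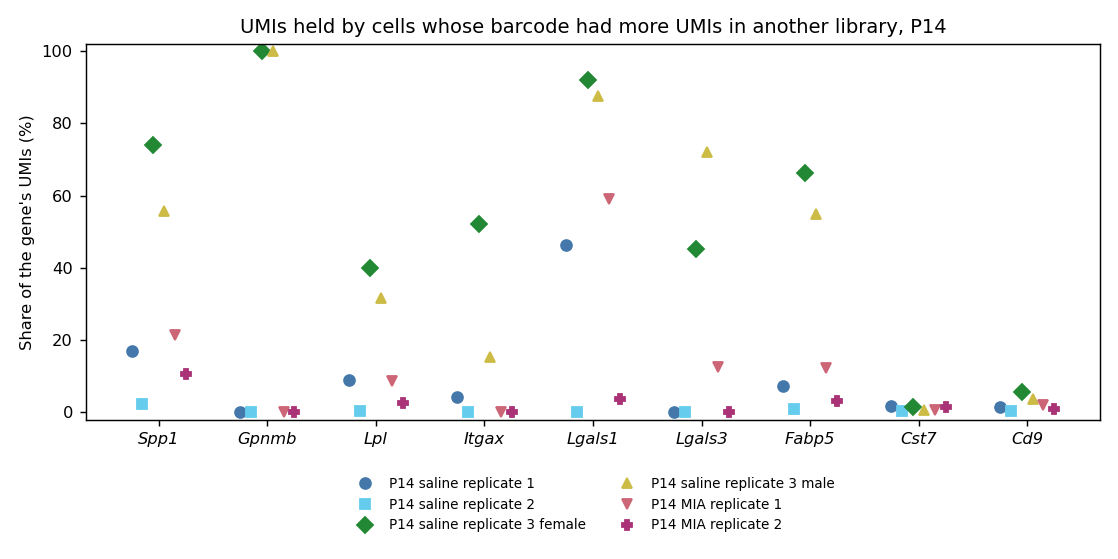
Percentage of each gene's UMIs (vertical axis, linear) that lay in cells whose barcode had more UMIs in another library, with 1 symbol for each of the 6 P14 libraries. In the female and male libraries of saline replicate 3 Lgals1 reaches 92.1% and 87.6%, while Cst7 stays at 1.6% in the female library.

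The promoters of 3 genes whose P14 libraries lay below every embryonic one (values given with the levels) are shown, since a short motif of factors named for this state occurs in some and not in others. Letters were read from the 250 bases before the RefSeq start on GRCm38.p6, which held an entry for 7 of the 10 genes. Both strands were searched for CACGTG (the core site of the Mitf and Tfe lysosomal factors), TGANTCA (AP-1) and GAGGAA (PU.1, the Ets factor of macrophages), and capitals mark a match. Spp1 lies at chr5:104435118-104441050 on the plus strand, and the printed window is chr5:104434861-104435110. Gpnmb lies at chr6:49036546-49070929 on the plus strand with the window chr6:49036268-49036517, and Itgax at chr7:128129547-128150657 on the plus strand with the window chr7:128129300-128129549.
Spp1: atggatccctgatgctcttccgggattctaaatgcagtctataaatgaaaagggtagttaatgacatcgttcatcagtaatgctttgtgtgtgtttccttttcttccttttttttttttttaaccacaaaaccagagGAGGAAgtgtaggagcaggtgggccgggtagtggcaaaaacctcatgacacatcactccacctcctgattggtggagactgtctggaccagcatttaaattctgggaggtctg
Gpnmb: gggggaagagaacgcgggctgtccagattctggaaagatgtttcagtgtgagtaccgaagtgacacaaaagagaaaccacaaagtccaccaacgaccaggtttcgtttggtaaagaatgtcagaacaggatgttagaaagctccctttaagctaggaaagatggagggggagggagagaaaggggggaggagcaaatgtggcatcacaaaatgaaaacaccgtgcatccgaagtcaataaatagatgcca
Itgax: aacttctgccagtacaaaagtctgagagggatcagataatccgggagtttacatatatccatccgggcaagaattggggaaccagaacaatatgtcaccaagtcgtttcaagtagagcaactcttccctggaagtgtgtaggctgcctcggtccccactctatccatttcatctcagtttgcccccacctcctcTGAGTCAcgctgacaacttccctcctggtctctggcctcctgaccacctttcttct
The Spp1 window held 1 GAGGAA, which starts at -113, and the Itgax window 1 TGANTCA, at -56, counting back from the start. The Gpnmb window held none of the 3. A second Spp1 start, downstream of the first, and the windows of Lgals3, Cst7 and Cd9 also held none, and the Clec7a window held GAGGAA. Of 32851 promoter windows of the same length, 6.02% held CACGTG, 6.75% TGANTCA and 23.3% GAGGAA, so the matches are common and describe letters only.

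Spp1, the secreted ligand of the list, was uneven between libraries of one age. Its level at E13.5 was 55.9, 50.9 and 152.0 CPM in saline replicates 1, 2 and 3 and 123.2, 60.1 and 321.0 CPM in the MIA replicates. At E15.5 it was 47.8, 162.5 and 44.7 CPM after saline and 932.5, 61.1 and 53.9 CPM after MIA. At P14 it was 3.15, 8.48, 5.36 and 5.25 CPM in the saline libraries (replicates 1, 2, 3 female and 3 male) and 4.11 and 2.86 CPM in the MIA libraries. Replicate 3 was the highest of both treatments at E13.5, MIA replicate 1 stood far above the other 5 libraries at E15.5, and no P14 library overlapped an embryonic one. Without the shared barcodes the P14 libraries ranged from 1.51 to 8.34 CPM. For Spp1 and the genes below, the share of all genes whose libraries separate by age was not counted. In the age fits below, 26.7% of all genes tested were lower at P14 than at E15.5 after saline and 14.6% after MIA. Separation by age is therefore not read as particular to these genes.

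Gpnmb, a transmembrane glycoprotein of lysosomes and phagosomes, was carried by few molecules. Its level was 0.422, 1.15 and 7.05 CPM after saline and 0.422, 4.87 and 2.88 CPM after MIA at E13.5 (9, 40, 353, 3, 30 and 305 UMIs). At E15.5 it was 2.14, 4.51 and 0.943 CPM after saline and 18.9, 1.07 and 1.27 CPM after MIA. The highest library was again E15.5 MIA replicate 1, with 1078 UMIs, and MIA replicate 3 had 0.604 CPM without the shared barcodes. The 6 P14 libraries held 1 to 8 UMIs each (0.0451 to 0.317 CPM), and 0 to 3 once the shared barcodes were removed, so they lay below every embryonic library but rest on very few counts.

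Of the lipid genes, Lpl, which releases fatty acids from lipoproteins, varied less between libraries of one age than Spp1 did. It was 384.5, 349.8 and 342.9 CPM after saline and 456.8, 401.6 and 349.8 CPM after MIA at E13.5, and 125.7, 142.1 and 132.9 CPM after saline and 144.7, 103.0 and 181.9 CPM after MIA at E15.5. At P14 it was 35.6, 58.0, 65.0 and 62.4 CPM after saline and 52.4 and 28.4 CPM after MIA. The 3 ages did not overlap in any library. Without the shared barcodes the female and male libraries had 42.5 and 45.4 CPM.

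Fabp5, which carries fatty acids in the cytosol, was 222.1, 235.4 and 368.9 CPM after saline and 178.4, 177.4 and 427.3 CPM after MIA at E13.5. At E15.5 it was 182.5, 332.9 and 192.5 CPM after saline and 796.1, 170.7 and 190.8 CPM after MIA. The 2 embryonic ages overlapped, with replicate 3 highest in both treatments at E13.5 and MIA replicate 1 highest at E15.5, as for Spp1. At P14 all libraries lay between 15.0 and 25.9 CPM, below every embryonic one, and the female library had 9.50 and the male one 11.2 CPM without the shared barcodes.

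Both galectins, which bind galactose-containing sugars, were lower at P14 than in any embryonic library. Lgals1 was 402.4, 239.9 and 295.4 CPM after saline and 381.7, 280.8 and 295.6 CPM after MIA at E13.5. At E15.5 it was 155.5, 76.8 and 62.5 CPM after saline and 80.0, 68.1 and 89.7 CPM after MIA. These ages did not overlap either, and MIA replicate 3 of E15.5 had 57.5 CPM without the shared barcodes. At P14 it was 6.31, 6.70, 28.6 and 21.6 CPM after saline and 8.63 and 4.80 CPM after MIA, and without the shared barcodes 3.44, 6.74, 2.46, 2.86, 3.60 and 4.66 CPM, so the higher values of the female and male libraries went with the shared barcodes. Lgals3 ranged from 8.12 to 20.9 CPM at E13.5 and from 7.55 to 39.8 CPM at E15.5, with MIA replicate 1 highest there, and at P14 was 0.0451 CPM (1 UMI), 3.02, 1.67 and 0.841 CPM after saline and 0.881 and 1.54 CPM after MIA, with 0.994 and 0.251 CPM in the female and male libraries without the shared barcodes.

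Of the surface proteins, Itgax ranged from 3.82 to 7.79 CPM at E13.5, from 2.78 to 5.91 CPM at E15.5 and from 0.912 to 1.57 CPM at P14. Its P14 libraries lay below all the others, with the female one at 0.475 CPM without the shared barcodes, while the embryonic ages overlapped. Cd9, a tetraspanin that organises adhesion molecules, overlapped at all 3 ages, with 401.4 to 608.9 CPM at E13.5, 416.2 to 1098.8 CPM at E15.5 and 455.3 to 647.6 CPM at P14, and its highest library was E15.5 MIA replicate 1.

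Cst7 (cystatin F), an inhibitor of lysosomal cathepsins, went the other way. It was 1.41, 1.50 and 2.40 CPM after saline and 0.843, 0.487 and 2.43 CPM after MIA at E13.5, and 1.39, 7.15 and 3.54 CPM after saline and 7.05, 3.60 and 5.85 CPM after MIA at E15.5. At P14 it was 10.9, 9.18, 4.88 and 5.55 CPM after saline and 10.5 and 7.78 CPM after MIA. The P14 libraries lay above all of E13.5, and neighbouring ages overlapped.

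**Figure D2:**
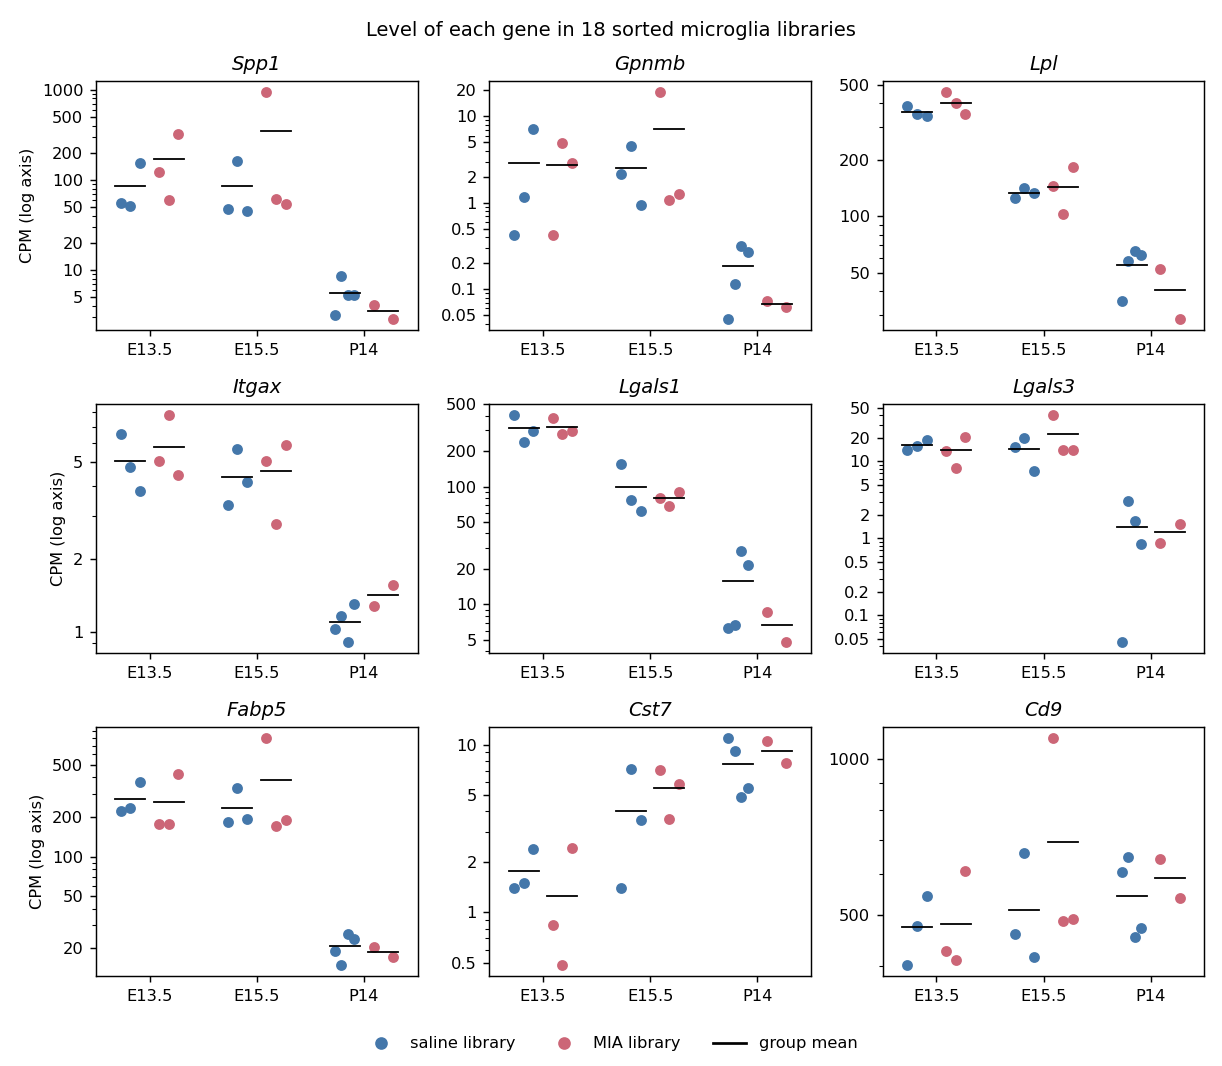
Level of 9 genes in 18 libraries, in CPM of UMIs summed over cells (log axis), by age, with saline and MIA libraries as points and the group mean as a black line. Spp1, Gpnmb, Itgax, Lgals1, Lgals3, Lpl and Fabp5 are lower in every P14 library than in every E15.5 library. Gpnmb rests at P14 on very few UMIs (0.0451 to 0.317 CPM). The share of all genes that separate in this way was not counted, while 26.7% of genes tested were called lower at P14 than at E15.5 after saline and 14.6% after MIA (edgeR). E15.5 MIA replicate 1 is the highest point of Spp1 at 932.5 CPM.

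The age comparison asks how the genes differed between the 3 sampled ages. It was fitted in edgeR over summed UMIs, separately in saline and in MIA libraries, and values are log2 fold changes ± SE with p adjusted over all genes tested. No library was taken between E15.5 and P14, so a rise and fall around birth would not be seen. In the paper's atlas of untreated microglia, clusters marked by Spp1, or by Fabp5 and Ccl3, made up more of the cells late in gestation. From E13.5 to E15.5 after saline, 2 of the 9 genes were lower and 0 higher, where 12.4% of the genes tested were lower and 16.2% higher. Lpl fell by 1.45 ± 0.18 (adjusted p = 0.00045) and Lgals1 by 1.67 ± 0.54 (adjusted p = 0.0393). The Lgals1 call was lost when saline replicate 1, 2 or 3 of E13.5 or replicate 2 or 3 of E15.5 was left out (log2 fold change -1.41 to -2.23 over all omissions). The other 7 did not pass the test, Spp1 with -0.06, Gpnmb with -0.27, Itgax with -0.23, Lgals3 with -0.20, Fabp5 with -0.25, Cst7 with 1.10 (adjusted p = 0.134) and Cd9 with 0.08. Cst7 ran from 0.37 to 1.48 when single libraries were left out, and passed without E15.5 saline replicate 1 (adjusted p = 0.0184). The median of the 9 was -0.23, beside 0.03 over all genes.

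After MIA the same step lowered 2 genes and raised 1, where 7.80% of the genes tested were lower and 7.39% higher. Lpl fell by 1.49 ± 0.27 (adjusted p = 0.0118) and Lgals1 by 2.01 ± 0.24 (adjusted p = 0.0033). Cst7 rose by 1.87 ± 0.52 (adjusted p = 0.0457), a call that was lost without MIA replicate 1 or 2 of E13.5, 2 or 3 of E15.5, or 1 or 2 of P14. Spp1 had 1.00 ± 1.07, which became -1.59 without E15.5 MIA replicate 1. Gpnmb with 1.41, Itgax with -0.30, Lgals3 with 0.62, Fabp5 with 0.54 and Cd9 with 0.52 did not pass either. The median of the 9 was 0.54 with 6 above 0, beside 0.08 over all genes, and without E15.5 MIA replicate 1 it was -0.55 with 2 above 0, beside 0.05.

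Gpnmb met the filter on low counts in the fits of E15.5 against P14 only through its E15.5 libraries, so no fold change or call is given for it at that step. From E15.5 to P14 after saline, 6 of the other 8 genes fell and 0 rose, where 26.7% of the genes tested fell and 26.8% rose. Spp1 fell by 4.13 ± 0.56 (adjusted p = 0.00013), Fabp5 by 3.68 ± 0.28 (adjusted p = 3.01e-06) and Lgals1 by 2.85 ± 0.52 (adjusted p = 0.00084). Lgals3 fell by 3.57 ± 0.59 (adjusted p = 0.00048). Itgax fell by 2.16 ± 0.24 (adjusted p = 3.79e-05) and Lpl by 1.47 ± 0.16 (adjusted p = 3.17e-05). Cst7 with 0.77 (adjusted p = 0.192) and Cd9 with -0.10 (adjusted p = 0.69) did not pass. Cst7 ran from 0.34 to 1.46 when single libraries were left out, and passed without E15.5 saline replicate 2 (adjusted p = 0.0219). The median of the 8 was -2.50, beside 0.04 over all genes. The fits of both treatments summed all cells kept, those with neuron markers included. The neuron marker sum was 177 to 2212 CPM at E15.5 and 17.9 to 43.2 CPM at P14, and Fabp5 was also common in cells with neuron markers (shares given below). The part of neuronal RNA in the Fabp5 drop was not tested.

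The 6 drops were larger without the shared barcodes. Spp1 then fell by 4.70, Lpl by 1.77, Itgax by 2.36, Lgals1 by 4.85, Lgals3 by 3.93 and Fabp5 by 4.32 on the log2 scale, with a median of -3.15 over the 8.

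The MIA libraries, which share none with saline, gave 6 of the 8 lower and 0 higher at the same step, where 14.6% of the genes tested were lower and 12.8% higher. Spp1 fell by 6.76 ± 1.66 (adjusted p = 0.019) and Fabp5 by 4.46 ± 0.84 (adjusted p = 0.0066). Without E15.5 MIA replicate 1 both drops were smaller, 4.18 and 3.38. Lpl fell by 1.94 ± 0.32 (adjusted p = 0.0039), Itgax by 1.80 ± 0.40 (adjusted p = 0.0124), Lgals1 by 3.68 ± 0.31 (adjusted p = 0.00027) and Lgals3 by 4.34 ± 0.68 (adjusted p = 0.0031). Cst7 with 0.61 (adjusted p = 0.42) and Cd9 with -0.35 (adjusted p = 0.519) did not pass. With only 1 P14 MIA library left, either one, 3 genes were called (Lpl, Lgals1 and Lgals3), the lone library being assumed to vary like the other groups. The same 6 were called without the shared barcodes, with drops of 7.01 for Spp1, 4.56 for Fabp5, 1.93 for Lpl, 1.80 for Itgax, 4.17 for Lgals1 and 4.40 for Lgals3. The median of the 8 was -2.81, beside 0.00 over all genes. Within a treatment both age steps share the E15.5 libraries.

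Other genes of the same programme were counted in the same fits. From E15.5 to P14, 26.7% of all genes tested fell and 26.8% rose after saline, and 14.6% fell and 12.8% rose after MIA. From E13.5 to E15.5 the shares were 12.4% lower and 16.2% higher after saline, and 7.8% and 7.39% after MIA. No gene of this list or those below was dropped for meeting the low-count filter only through embryonic libraries, as Gpnmb was. How many did so is not given, and such a gene can hardly be called higher at P14. The falls counted here and in the lists below may thus be set in part by the filter, and are a description only. The shares over all genes include such genes too. Of 26 tested genes of disease-associated and axon tract microglia outside the list, 15 fell and 2 rose from E15.5 to P14 after saline, and 14 fell and 0 rose after MIA. Among them the chemokine Ccl3 changed by -3.71, the receptor tyrosine kinase Axl by -3.24 and the phosphatidylserine-binding Anxa5 by -3.06 after saline. From E13.5 to E15.5 the same list had 12 higher and 0 lower after saline and 6 higher and 2 lower after MIA, with the lysosomal Pld3 at 0.99 and 1.28.

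Partners of the genes were counted in the same fits. From E15.5 to P14, 26.7% of all genes tested fell and 26.8% rose after saline, and 14.6% and 12.8% after MIA. Counts in lists this short were not tested against those shares. Of 7 tested lipid partners, 5 fell and 0 rose from E15.5 to P14 after saline, among them the Lpl inhibitor Angptl4 (-3.60) and the fatty acid chaperones Fabp7 (-2.85) and Fabp3 (-2.69), and 4 fell after MIA. Of 7 osteopontin receptor genes, 2 fell, Cd44 (-2.82) and the integrin subunit Itga4 (-2.41), and 4 rose, among them Itgb3 (1.09), after saline, and 2 fell and 3 rose after MIA. Of the 7 tetraspanins and galectins outside the list, 5 rose and 0 fell under both treatments, with the tetraspanin Cd37 at 0.94 and 1.01. The 4 integrin and Clec7a partners had 3 higher and 0 lower under both, with Itgam at 1.04 and 1.15 and Itgb2 at 0.93 and 1.26. Itgam (Cd11b) was itself used in the sort. The counts of these lists changed by at most 1 without the shared barcodes, while Angptl4 had -5.52 and Cd44 -4.38 after saline.

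Of 5 cathepsins and cystatins, 2 rose and 2 fell under both treatments at that step. These counts, too, were not tested against the shares of all genes given for that step. Cst3, the secreted cystatin of mature microglia, changed by 2.27 and 2.41 and Cstb, a cytosolic cystatin, by -1.59 and -1.43. Of 6 genes of the MiT/TFE and related factors, Tfec (-2.47) and Mitf (-0.51) fell and Tfe3 (0.49) rose after saline, and Tfec (-2.60) and Mitf (-0.73) fell after MIA. The homeostatic microglia genes went up, 12 of 12 after saline and 10 of 12 after MIA, with Tmem119 at 1.84 and 1.99 and P2ry12 at 1.54 and 1.52, and 9 and 7 of 12 had already risen from E13.5 to E15.5. At that earlier step 16.2% and 7.39% of all genes tested rose.

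The comparison of MIA with saline asks whether the mothers' immune response changed these genes in microglia of the offspring. It gave 0 of 9 genes in edgeR at E13.5, at E15.5 and averaged over the ages, and 0 of the 8 tested at P14, where Gpnmb was too low to be tested. Of all genes tested, 0% were called in each of these comparisons, as in the 2 tests of a difference between ages. At an unadjusted p under 0.05 there were 101 of 12994 genes at E13.5, 54 of 14020 at E15.5 and 417 of 13640 at P14. Of 15121 genes there were 399 in the average, 89 for E15.5 minus E13.5 and 181 for P14 minus E15.5. None of them were among the 9 in these fits. DESeq2 called 2, 0, 1, 0, 0 and 0 genes in the same order. Every edgeR count lies below the share of 0.05 that tests with no effect give on average. The 0 calls therefore do not show that MIA left these genes unchanged. With the female and male P14 saline libraries summed, the P14 count was 186. The median of the genes of the list was 0.01 at E13.5, 0.44 at E15.5, -0.15 at P14 and 0.16 in the average, beside 0.01, 0.01, -0.00 and 0.00 over all genes. These medians had no stable sign, since without E15.5 MIA replicate 1 they were -0.081 at E15.5 and -0.083 in the average, and without the shared barcodes 0.13 at P14.

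Spp1 had a log2 fold change of 0.98 ± 0.59 at E13.5, which ran from 0.06 to 1.69 when single libraries were left out. The other 8 genes had -0.17 (Gpnmb), 0.15 (Lpl), 0.13 (Itgax), 0.02 (Lgals1), -0.13 (Lgals3), -0.08 (Fabp5), -0.23 (Cst7) and 0.01 (Cd9) at that age. At E15.5 Spp1 had 1.99 ± 1.16 and rested on MIA replicate 1, since without that library it was -0.58. With the replicate number as a block it was 0.84. Gpnmb (1.46 ± 1.14), Lgals3 (0.62 ± 0.51), Fabp5 (0.68 ± 0.60) and Cd9 (0.41 ± 0.35) moved with the same library, and became -1.14, -0.07, -0.40 and -0.08 without it. Lpl had 0.08, Itgax 0.05, Lgals1 -0.34 and Cst7 0.44 there. At P14 Spp1 had -0.65 ± 0.36, or -0.34 without the shared barcodes, and Lgals1 -1.21 ± 0.65, or 0.11 without them, while Lpl had -0.43, Itgax 0.39, Lgals3 -0.17, Fabp5 -0.12, Cst7 0.27 and Cd9 0.13. Lgals3 (0.14) and Fabp5 (0.41) turned positive without the shared barcodes as well. With single libraries left out, 7 of 9 values changed sign at E13.5 (all but Spp1 and Lpl), 8 of 9 at E15.5 (all but Cst7) and 3 of 8 at P14 (Lgals3, Fabp5 and Cd9). The response of Spp1 at E15.5 differed from that at E13.5 by 1.05 ± 1.26 and from that at P14 by -2.67 ± 1.43 (P14 minus E15.5), neither past the test. Both rested on E15.5 MIA replicate 1, without which they were -1.55 and -0.095.

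E15.5 MIA replicate 1 also had the highest neuron marker sum of its age (2212 CPM, the others 177 to 577). Its border macrophage sum of 128 CPM was the lowest of its age, and its microglial marker sum of 38661 CPM lay within the range of the others. The microglia gate, which asks for at least 4 of the 12 microglial markers and more of their UMIs than of other lists, kept 78.2% of its cells, the lowest share at E15.5. With the gate the E15.5 fold change of Spp1 was 2.26 ± 1.19. The part of neuronal RNA in the values of this library was not tested.

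The share of cells in which a gene was seen was measured after drawing 2000 UMIs from every cell, which left out 3005, 2771 and 1881 shallower cells at E13.5, E15.5 and P14 and kept 10389, 21783 and 28018. Spp1 was seen in 3.46%, 3.28% and 9.29% of cells of the E13.5 saline libraries and in 4.88%, 4.95% and 11.0% of the MIA libraries. At E15.5 the shares were 2.45%, 2.98% and 1.33% after saline and 10.3%, 2.23% and 1.80% after MIA, and at P14 they were between 0.246% and 0.387%. So Spp1 was seen in a minority of cells at every age, and E15.5 MIA replicate 1 matched the highest E13.5 libraries.

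Within that minority the molecules were unevenly spread. Of the cells with any Spp1, the 10% with most held 35.8 to 55.9% of the thinned Spp1 UMIs in the 4 E13.5 libraries with at least 30 such cells and 43.7 to 65.2% in 5 E15.5 libraries, while the median such cell of these libraries had 1 or 2 UMIs. Cells with at least 10 Spp1 UMIs were 2.08% of E15.5 MIA replicate 1, 0.137 to 0.354% of the other E15.5 libraries and 0 to 1.10% of the E13.5 libraries. The highest cell had 119 Spp1 UMIs of 2000 at E13.5, 246 at E15.5 and 33 at P14.

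**Figure D3:**
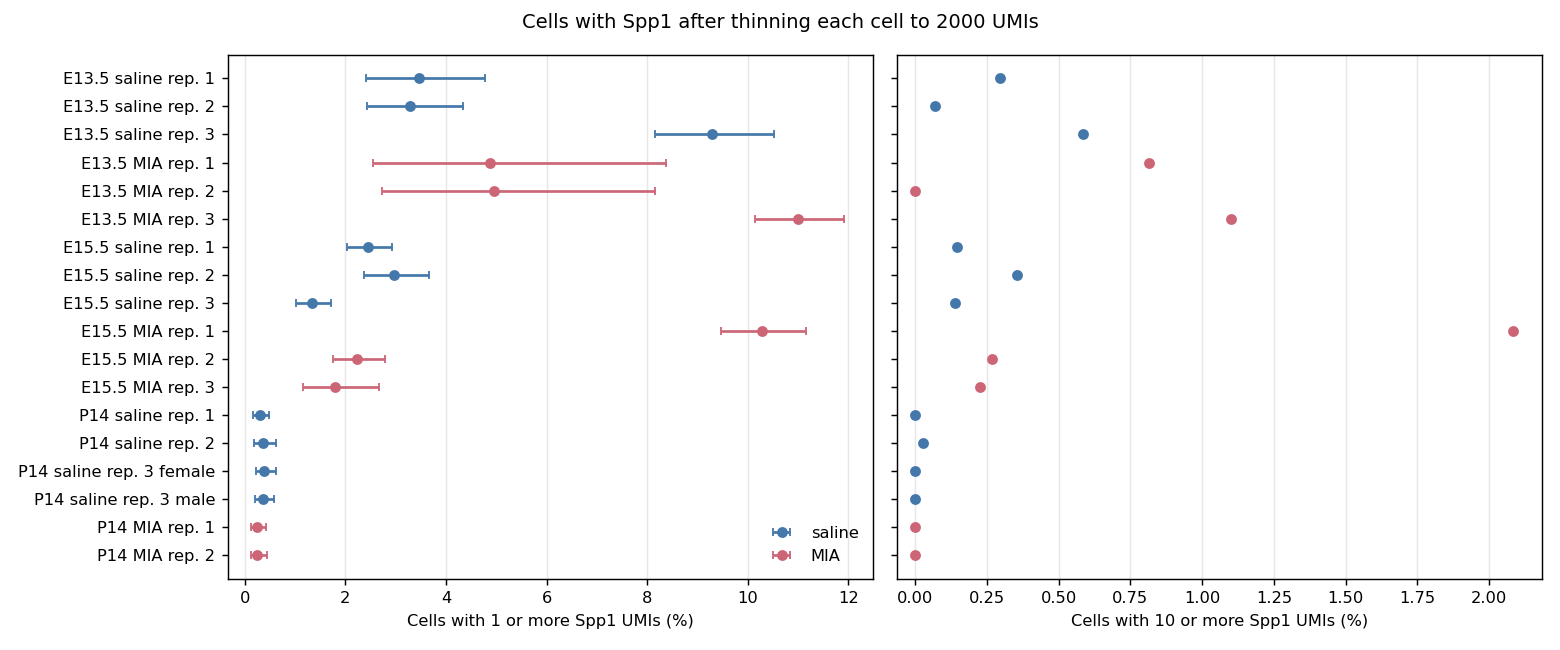
Percentage of thinned cells with at least 1 (with 95% Clopper-Pearson bars, counting error only) and at least 10 Spp1 UMIs in each of the 18 libraries, grouped by age. E15.5 MIA replicate 1 reaches 10.3% and 2.08%, while the P14 libraries lie between 0.246% and 0.387% for at least 1 UMI.

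The other genes differed in how widely they were seen. Cd9 was found in 51.2 to 61.1% of cells at E13.5, 42.8 to 58.4% at E15.5 and 51.5 to 63.9% at P14, so it was common at every age. Lpl went from 38.3 to 50.2% over 12.53 to 19.6% to 4.16 to 8.29%, Lgals1 from 32.3 to 45.1% over 7.92 to 20.8% to 0.462 to 2.14%, and Fabp5 from 22.4 to 30.6% over 15.3 to 37.2% to 1.14 to 2.48%. Lgals3 was rare at all ages (1.41 to 2.80%, 0.893 to 3.27% and 0.0188 to 0.159%), as was Itgax (0.821 to 2.12%, 0.387 to 1.28% and 0.137 to 0.235%). Cst7 went from 0 to 0.502% over 0.289 to 1.10% to 0.911 to 1.77%. Gpnmb was in 0 to 1.09% and 0.0748 to 0.892% of embryonic cells and in 0 cells of every P14 library, which allows a share of thinned cells with a UMI of up to 0.0564 to 0.0837% per library, and unthinned it was in 0.0172 to 0.0788%. Without the shared barcodes the highest P14 share was 0.899% for Lgals1, 1.41% for Fabp5 and 0.112% for Lgals3, and the lowest for Itgax was 0.0482%.

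The libraries' shares of each of the 9 genes were permuted within treatment in an exact two-sided test, with unadjusted p. Between E13.5 and E15.5, 2 of the 9 passed lower and 1 higher, where 18.9% of the genes seen in at least 0.1% of cells on average passed lower and 15.7% higher. Lpl fell by 27.0 percentage points (p = 0.005, exact permutation test) and Lgals1 by 24.8 points (p = 0.005, exact permutation test), the smallest p that 400 regroupings give. Cst7 rose by 0.62 points (p = 0.01, exact permutation test). Spp1 (-2.63 points, p = 0.19), Fabp5 (-5.36, p = 0.21), Cd9 (-5.45, p = 0.11) and Itgax (-0.62, p = 0.06) did not pass this exact permutation test, and Gpnmb and Lgals3 did not either. Without E15.5 MIA replicate 1, Spp1 (-4.01), Fabp5 (-8.96) and Cd9 (-7.53) passed as well.

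Between E15.5 and P14, 6 of the 8 genes other than Gpnmb passed lower and 2 higher in the same test, where 20.6% of genes passed lower and 39.8% higher. Lpl fell by 9.38 points, Itgax by 0.555, Lgals1 by 10.4, Lgals3 by 1.65 and Fabp5 by 19.2 (p = 0.00286 each, the smallest that 350 regroupings give in the exact permutation test). Spp1 fell by 3.21 points (p = 0.0257, exact permutation test), which was lost without P14 MIA replicate 1 or 2. The Gpnmb share was 0 in all P14 libraries and is not counted. Cst7 rose by 0.47 points and Cd9 by 9.31 (p = 0.0371 each, exact permutation test), and both were lost without saline replicate 1 or 3 or MIA replicate 2 or 3 of E15.5, or without saline replicate 1 or 2 or MIA replicate 1 of P14. Both were also lost with the microglia gate, where Cst7 rose by 0.417 points (p = 0.0657) and Cd9 by 6.68 (p = 0.194, exact permutation test), and when cells were thinned to 1000 UMIs. Without the shared barcodes 7 of the 8 passed, since Cst7 had p = 0.0543 (exact permutation test). Cd9 rose in share while its level in CPM did not pass the edgeR test.

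For MIA against saline, over 6000 regroupings within age that do not use the replicate numbers, 0 of 9 shares passed, where 1.25% of genes passed higher and 1.77% lower. The lowest p was 0.248 (exact permutation test), for Spp1, whose share was 1.34 points higher after MIA and 0.42 to 2.00 points higher when single libraries were left out.

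Free RNA can give UMIs in cells that do not make a gene, so the shares were set beside those of neuron-like cells of the same libraries, with at least 4 of 8 neuron markers and at most 2 microglial ones. These had medians of 3501 and 3665 UMIs at E13.5 and E15.5, against 19194 and 10678 in gated microglia, before thinning. Lpl was seen in 5.41% and 3.22% of neuron-like cells against 42.4% and 16.8% of gated microglia, Lgals1 in 1.80% and 1.75% against 36.3% and 12.4%, and Cd9 in 4.50% and 5.26% against 60.1% and 53.0%. These 3 were thus well above that background. Gpnmb, Itgax, Lgals3 and Cst7 were in 0 neuron-like cells, which allows up to 2.70% at E13.5 and 0.877% at E15.5 and gives no useful background, since of their shares in gated microglia (0.371 to 2.49% and 0.375 to 1.94%) only that of Lgals3 at E15.5 lay above that limit.

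Fabp5 differed from the rest. It was in 66.7% (74 of 111) and 68.1% (233 of 342) of neuron-like cells against 27.3% and 18.8% of gated microglia, so its share in microglia lay below that of the neuron-like cells. Neuron-like cells therefore cannot serve as a background of free RNA for Fabp5. How much of its share in microglia is free RNA was not tested. Spp1 was in 2 of 111 neuron-like cells (1.80%) at E13.5 against 8.69% of gated microglia. In E15.5 MIA replicate 1 it was in 8 of 122 (6.56%) against 11.1%, and in the other 5 libraries of that age in 0 of 220, which allows up to 1.36%, against 2.22%. At P14 there were only 17 neuron-like cells, too few for a share.

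Whether the genes were seen in the same cells was measured next. For each pair and library the share of thinned cells with both was divided by the product of the 2 shares, where at least 3 cells were due. Pairs share cells and genes, and the ratios are a description with no test. Of 36 pairs, 30 gave a ratio in some embryonic library, 29 had a median above 1 and 18 were above 1 in every library that gave one. Of all pairs of genes seen in at least 0.1% of embryonic cells on average that gave a ratio, 50.8% had a median above 1 and 11.9% were above 1 in every such library. Some of the 18 pairs rest on few libraries, such as Spp1 with Cst7 on 1 and Spp1 with Itgax on 2. The shares over all pairs were not matched for the number of libraries.

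Of the pairs with a ratio in single libraries, Spp1 and Gpnmb had the highest median, with 5.51 and 7.13 in the 2 libraries with enough cells, and 88 cells of all embryonic libraries held both where 11.5 were due. Spp1 with Fabp5 had a median of 2.02 (1.17 to 4.20) and was above 1 in 11 of 11 libraries, and Spp1 with Cd9 had 1.34, above 1 in 12 of 12. Spp1 with Lpl had a median of 1.62 and was above 1 in 11 of 12, with Lgals3 2.36 in 3 of 3, and with Lgals1 1.86 in 9 of 11. Of 12 embryonic libraries, too few cells were due in the others for a ratio of Spp1 with Gpnmb or with Lgals3.

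Among pairs without Spp1, Lpl with Lgals3 had a median of 2.23 (10 of 10), Lgals3 with Fabp5 1.92 (10 of 10), Lgals1 with Lgals3 1.87 (8 of 8) and Gpnmb with Fabp5 2.33 (3 of 3). Gpnmb and Lgals3 gave no ratio in any single library, but 42 cells of all embryonic libraries held both where 3.55 were due, more for the number due than Spp1 and Gpnmb had. The exception was Itgax with Lgals1, with a median of 0.53 and a ratio above 1 in 3 of 7 libraries. Fabp5 with Cd9 was near 1 (1.05).

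At P14, 10 pairs gave a ratio, and 8 without the shared barcodes. Spp1 with Cd9 was above 1 in 6 of 6 libraries (median 1.56, or 1.64 without the shared barcodes), and Fabp5 with Cd9 was below 1 in all 6 (median 0.88, or 0.91). Lpl with Lgals1 had a median of 4.34 in 3 libraries, and no library gave that ratio without the shared barcodes. Spp1 and Lpl were together in 44 cells where 6.12 were due, and in 33 where 4.40 were due without the shared barcodes.

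**Figure D4:**
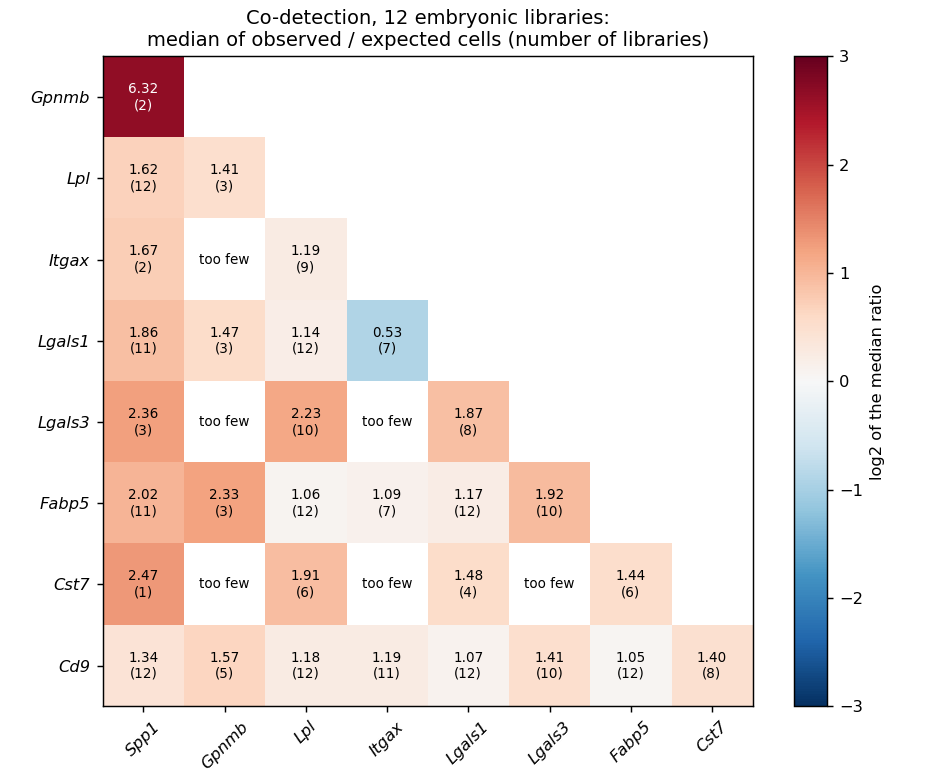
Median observed/expected ratio of cells with both genes of each pair over the embryonic libraries, with the number of libraries that gave a ratio in parentheses and the log2 of the median as colour. Spp1 with Gpnmb is the highest at 6.32, and Itgax with Lgals1 is the lowest at 0.53.

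Cells with 5 or more of the 9 genes were 0.296 to 2.01% of a library at E13.5, 0.275 to 2.16% at E15.5, highest in MIA replicate 1, and 0.0188 to 0.0568% at P14. Cells with none were 9.35 to 14.2%, 19.6 to 39.3% and 32.7 to 43.0%. Most cells therefore held 1 to 4 of them at each age.

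Cells with at least 2 Spp1 UMIs were then set against cells with none in the same library, at the same 2000 UMIs, and the log2 ratio of mean UMIs was tested over libraries by an exact two-sided sign-flip permutation test (unadjusted p, 8 genes). Spp1 chose the cells and was not tested. At E15.5 each of 6 libraries had 14 to 258 such cells. Fabp5 was higher in them by 3.40 ± 0.44 (SD), Lgals3 by 2.85 ± 0.82, Lpl by 2.22 ± 0.33, Cd9 by 1.92 ± 0.36 and Lgals1 by 1.92 ± 0.94, each in 6 of 6 libraries (p = 0.03125, exact permutation test, the smallest that 6 libraries give). Of the genes seen in at least 0.1% of E15.5 cells on average, 2.7% were higher in all 6 libraries and 22.3% lower, and of those seen in at least 5% of cells of every E15.5 library 7.08% and 11.9%. Without the shared barcodes Lgals1 was higher in 5 of 6 (p = 0.0625, exact permutation test).

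Gpnmb was higher by 3.17 ± 1.75, in 5 of 6 libraries (p = 0.0625, exact permutation test). Cst7, with 1.01 in 4 of 6 (p = 0.125), and Itgax, with 0.52 in 3 of 6 (p = 0.4375, exact permutation test), did not pass either. At E13.5 only 4 libraries had enough such cells (14 to 287), and 4 libraries cannot give an exact p under 0.125. Fabp5 (2.40), Cd9 (0.98), Lgals1 (0.87) and Lpl (0.76) were higher in 4 of 4. The P14 libraries had 2 to 5 such cells and gave no ratio.

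**Figure D5:**
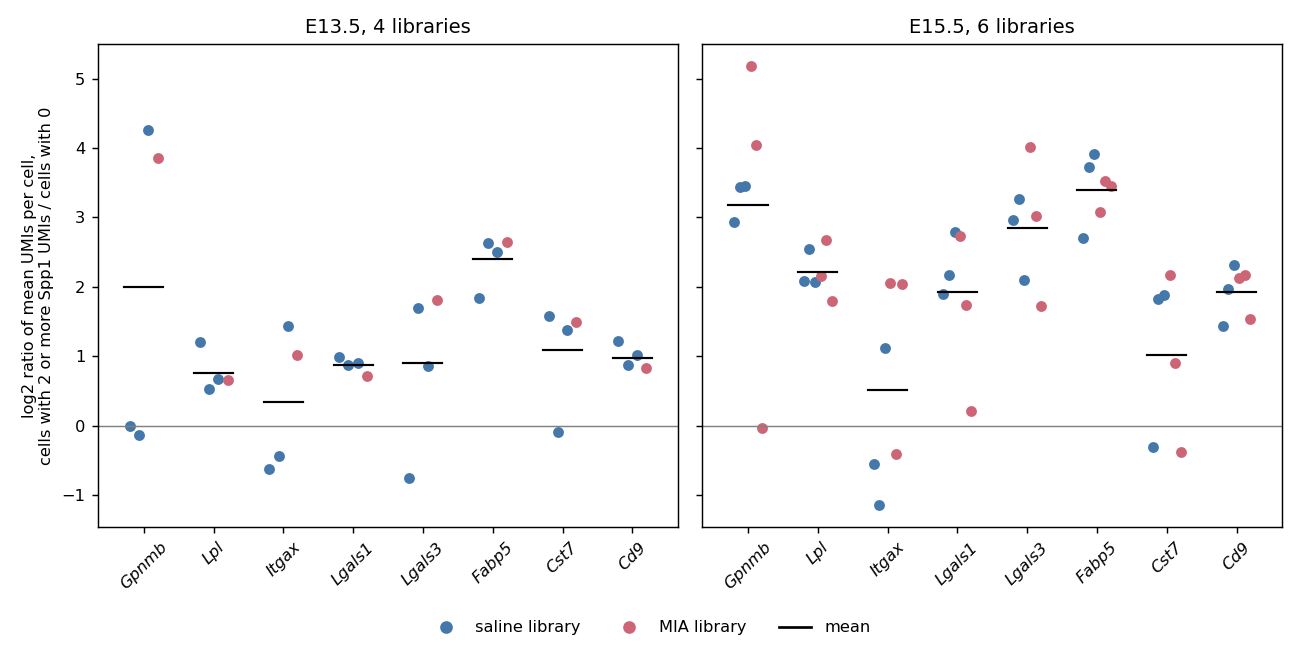
Log2 ratio of mean UMIs in cells with at least 2 Spp1 UMIs to cells with none for the 8 other genes, with 1 point per library (4 at E13.5, 6 at E15.5) and the mean as a black line. Fabp5 lies above 0 in all 10 libraries, and Itgax is above 0 in 3 of 6 libraries at E15.5.

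Outside the list, 19 of 28 genes of the same programme were higher in the Spp1 cells of every E15.5 library (17 of the 22 seen in at least 5% of cells of every library). The growth factors Csf1 (2.92) and Igf1 (2.79) and the chemokine Ccl3 (2.53) were among them, as were the lipid droplet coat Plin2 (1.15), Ctsb (0.84), Cd63 (0.76), Ctsd (0.74) and Apoe (0.55), while Trem2 was at 0.02. Cd52 (-0.52) was the only one lower in every library. Of the 12 homeostatic genes, 8 were lower in every library, among them Tmem119 (-1.89), P2ry12 (-1.44), Siglech (-1.07) and Cx3cr1 (-0.64). Cx3cr1 was itself used in the sort. Of all genes seen in at least 0.1% of E15.5 cells on average, 2.7% were higher in every library and 22.3% lower. Of those seen in at least 5% of cells of every E15.5 library, 7.08% were higher and 11.9% lower. The genes named here, other than Trem2, had the same sign in every E15.5 library. Any such gene has an unadjusted p = 0.03125 in the exact permutation test over 6 libraries, so this p only restates how they were picked.

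Markers of other cell types were counted in the same cells. None of the 8 border macrophage markers was higher in every E15.5 library, with Mrc1 at 0.31 and Pf4 at 0.87, each higher in 4 of 6, and 2 of 8 were higher in every library at E13.5. The median log2 ratio of these markers was 0.91 at E13.5, beside 0.94 for the genes of the list, and 0.23 at E15.5, beside 2.07. Dab2, an endocytic adaptor that is not among the 8 but is also known from border macrophages, was higher in the Spp1 cells of all 10 embryonic libraries (median 1.19, lowest 0.81), and its part in the result was not tested. Of the 8 neuron markers, 7 were lower in every E15.5 library. Within the microglia gate and with cells of 3 or more border macrophage markers or 2 or more blood myeloid markers removed, Fabp5 was higher by 3.79 at E15.5, and 1 of the 8 neuron markers was lower in every library. With the same cells removed, the E13.5 median over 3 libraries was 0.91 for the genes of the list. That of the border macrophage markers was -0.02, but these markers chose the cells removed, so their median is no check. Before the removal 4 libraries gave ratios at E13.5, and cells with fewer than 3 such markers stayed in.

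Over all genes in at least 5% of thinned cells of every embryonic library (3783 genes), those outside the list with the highest median log2 ratio over the 10 libraries were Igf1 (2.45), Slc16a3 (1.64), Ccl3 (1.62), Gpr137b (1.38) and Bnip3 (1.29). Igf1 is a growth factor, Slc16a3 a lactate transporter and Bnip3 a mitophagy receptor. No test was made of this order.

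Across the 18 libraries, the genes whose log2(CPM + 1) was most like that of Spp1 among 8026 genes outside the list with a mean of at least 10 CPM were Fabp3 (Pearson r = 0.955), Atp6v1g1 (0.942), Clta (0.941), Bnip3 (0.940) and Adssl1 (0.938). Of the list, Fabp5 (0.962) and Lgals3 (0.947) were the closest, followed by Gpnmb (0.830), Itgax (0.810), Lgals1 (0.778) and Lpl (0.760), while Cd9 had 0.269 and Cst7 -0.457. The P14 libraries stand apart in these values, so they mix 2 clusters. The same 5 genes were closest without the shared barcodes. Over the 12 embryonic libraries alone Fabp5 (0.922), Cd9 (0.894), Lgals3 (0.833) and Gpnmb (0.743) stayed close to Spp1, Fabp3 had 0.832, Adssl1 0.822, Bnip3 0.783, Atp6v1g1 0.742 and Clta 0.728, and Lpl (0.015), Itgax (0.034) and Lgals1 (-0.040) were near 0. Without E15.5 MIA replicate 1 as well (11 libraries), Fabp5 had 0.822, Cd9 0.736, Lgals3 0.651, Gpnmb 0.460, Lpl 0.325, Lgals1 0.300 and Itgax -0.023. Of the 5 nearest genes Fabp3 then had 0.606, Adssl1 0.546, Bnip3 0.422, Atp6v1g1 0.402 and Clta 0.359. Cst7, negative over the 18 libraries, turned to 0.428 over the 12 embryonic libraries and 0.153 over the 11.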

How the data were processed

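Single-cell RNA of sorted microglia was counted in 18 libraries (Chromium 3' v3.1). The deposited files hold raw UMI counts for each gene in each barcode, from alignment to mm10 by the authors in Cell Ranger, and are not normalized. The submitters' processing notes name version 3.1.0, and the paper names a later one for microglia. The 8 nuclei libraries were not used here.

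The genes, lists and tests were chosen with earlier results of these data known. Gene positions come from GENCODE vM21 (GRCm38) and promoter sequence from RefSeq. A cell needed 500 genes, and no more than 20% of its UMIs could be mitochondrial. UMIs were summed per library and tested with edgeR 4.0.16 (quasi-likelihood, TMM, filterByExpr by group, R 4.3.3, limma 3.58.1), with Benjamini-Hochberg adjustment over all genes and a threshold of 0.05. DESeq2 1.42.0, other gates, thresholds and filters, and each library left out in turn were the alternatives, and handling of shared barcodes was added after seeing the data. CPM are relative to the summed UMIs of the cells kept. MIA was compared with saline within each age and in 1 model of 6 groups (average and differences between ages), and ages within each treatment. Shares were taken after thinning cells to 2000 UMIs (seed fixed) and tested by exact permutation over libraries. The p of shares and of cells with Spp1 are unadjusted. The share of all genes, or gene pairs, that passed the same way is given beside them. Intervals and floors (95%, 3 counts) cover counting error only. Doublet scores (Scrublet in scanpy 1.11.5) gave an automatic threshold that marked 0 to 6 cells per library and had not worked, so all cells were kept, and removing the top 0.8% per 1000 cells was an alternative. Scripts used pandas 2.3.3, scipy 1.17.1 and numpy 2.4.6 under Python 3.11.15 and were tested on simulated data.

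All 9 genes are named in the edgeR comparisons within an age and between ages, other than Gpnmb where P14 was too low. Of each other list at most the 3 called genes with the largest change are named for the age steps. Genes named among cells with Spp1 were chosen after their values were seen, other than the 5 of the highest median.

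Whether equal replicate numbers pair saline and MIA libraries was checked from the correlation of their deviations from the group means. At E15.5 all pairs of equal number were over 0.1 (0.244, 0.192 and 0.350). Deviations from a group mean sum to 0, and saline and MIA replicate 3 of E15.5 shared 157 barcodes. These values therefore cannot settle whether the numbers pair the libraries. The main fits used no block, and fits with the replicate number as a block are given among the alternatives. At E13.5 they were 0.157, -0.020 and 0.358 and at P14, with 2 pairs, 0.260 and -0.056.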

Additional observations from a re-analysis of the deposited data

How the results depend on the processing

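Of the counts that answer a comparison, 143 values under other settings and 153 with a library left out stayed within 1.5 times, and 2 and 9 did not. Counts of genes for MIA against saline were 0 with every library left out, and such 0 counts are among the values that stayed. The values that moved all belong to age comparisons. The counts of genes include Gpnmb at P14 against E15.5, which the report leaves out. For saline E15.5 against E13.5, 1 to 3 genes were called when a library was left out (2 in the report), and for MIA P14 against E15.5, 3 to 7 (7, or 6 without Gpnmb). Shares that differed between E13.5 and E15.5 numbered 5 with no thinning and 3 to 6 with a library left out (3), and between E15.5 and P14, 5 for at least 2 UMIs and 5 to 9 with a library left out (9, or 8 without Gpnmb, and 5 without P14 MIA replicate 1). Calls of single genes were otherwise lost in 37 and gained in 8 of the values with a library left out, and lost in 20 and gained in 5 of the others.

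Without shared barcodes and without E15.5 MIA replicate 1 the direction turned for MIA against saline at E15.5 (Spp1 -0.57, Gpnmb -1.52, Lgals3 -0.03, Fabp5 -0.41, Cd9 -0.04, Lpl -0.02), for the Spp1 response (E15.5 minus E13.5 -1.56, P14 minus E15.5 0.24), for MIA E15.5 against E13.5 (Spp1 -1.60, Gpnmb -1.62, Lgals3 -0.08, Fabp5 -0.57) and for Cd9 in MIA P14 against E15.5 (0.11). MIA against saline at P14 turned without shared barcodes for Lgals1 (0.11), Lgals3 (0.14) and Fabp5 (0.41), and with the microglia gate too they were 0.15, 0.13 and 0.42. At E13.5 Cd9 turned to -0.0033 with no filter on low counts and Lgals1 to -0.012 with doublets removed. Spp1 in saline E15.5 against E13.5 turned to 0.016 with that gate, 0.12 with the macrophage-free gate and 0.015 with the gate and without shared barcodes. The share of Gpnmb between E13.5 and E15.5 turned to 0.047 points for at least 2 UMIs, and that of Cst7 at P14 to -0.29 with no thinning. These causes were not tested.

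With a library left out, values that turned ran over these log2 ranges. MIA against saline at E15.5: Spp1 -0.58 to 2.88, Gpnmb -1.14 to 2.15, Lgals3 -0.065 to 0.94, Fabp5 -0.40 to 1.02, Cd9 -0.081 to 0.64, Lpl -0.16 to 0.26, Itgax -0.20 to 0.30, Lgals1 -0.64 to 0.18 (-0.65 without shared barcodes and without MIA replicate 1). At E13.5: Gpnmb -0.65 to 1.71, Itgax -0.069 to 0.33, Lgals1 -0.15 to 0.23, Lgals3 -0.61 to 0.14, Fabp5 -0.67 to 0.20, Cst7 -1.43 to 0.069, Cd9 -0.22 to 0.15. At P14: Lgals3 -0.62 to 0.53, Fabp5 -0.27 to 0.013, Cd9 -0.0072 to 0.26. Spp1 ran from -0.083 to 1.07 in the average, from -1.55 to 1.98 for E15.5 minus E13.5, while for P14 minus E15.5 it did not turn (-3.56 to -0.095). Saline E15.5 against E13.5: Spp1 -0.94 to 0.64, Gpnmb -0.95 to 1.59, Lgals3 -0.52 to 0.12, Fabp5 -0.60 to 0.013, Cd9 -0.15 to 0.23. MIA E15.5 against E13.5: Spp1 -1.59 to 1.94, Gpnmb -1.21 to 1.92, Lgals3 -0.10 to 1.08, Fabp5 -0.55 to 1.15. Cd9 ran from -0.26 to 0.10 in saline and from -0.54 to 0.14 in MIA P14 against E15.5, and the Gpnmb share from -0.19 to 0.12 points at E15.5 against E13.5.

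With the replicate number as a block no call of the 9 genes changed, while the sign turned for Gpnmb (0.024) and Cd9 (-0.0072) at E13.5 and for Lgals3 (0.14), Fabp5 (0.14), Cst7 (-0.16) and Cd9 (-0.097) at P14. At E13.5 the block gave 1 of the 9 genes, and 243 of 12994 genes, an unadjusted edgeR p under 0.05. Without the block these counts were 0 and 101. Spp1 in the block was 0.82 ± 0.17 at E13.5 (edgeR adjusted p = 0.68), 0.84 at E15.5, -0.68 at P14 and 0.33 in the average. No paired analysis was possible between ages because numbers are given within an age. The count over cells with Spp1 was not run with a library left out, since 5 libraries cannot give an exact permutation p under 0.0625. Gpnmb at P14 rests on 1 to 8 UMIs per library.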
